A study of Rattus norvegicus with 23 samples.

Results

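Hearts of newborn rats whose mothers had diabetes, ate a high-fat diet or had both were compared, as one set of exposed hearts, with hearts of unexposed newborns. Of 23 hearts taken at postnatal day 1, 16 were exposed and 7 were controls. The exposed hearts came from 3 groups: diabetes (6 hearts), HF diet (5 hearts) and the combination (5 hearts). The diet, control or HF, was fed from 28 or more days ahead of mating until delivery at gestational day 22. At gestational day 14 the dams were injected with citrate buffer, or with 65 mg/kg streptozotocin, a toxin of insulin-making beta cells. The diabetes group had control diet and streptozotocin, the HF diet group had HF diet and buffer, the combination group had HF diet and streptozotocin, and the controls had control diet and buffer. Diabetic dams were given insulin 2 times a day, which lowered but did not normalize glucose. Maternal diabetes cannot be told apart from the other effects of streptozotocin and insulin in these groups. The sex of the single hearts is not given. Several HF diet and combination hearts shared the stem of their sample code, and whether these were littermates is not given. The comparison asked which transcripts moved the same way after any of the 3 exposures, with each exposed group weighted equally against control.

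Glucose, fatty acids and ketone bodies cross from mother to fetus, and the fetal heart, which lives on glucose and lactate, turns to fatty acids soon after birth. Fetal growth under maternal diabetes is known for a larger heart and for more red cell production. Rodent red cells first carry embryonic globins, made in the yolk sac, and replace them with adult globins made in liver and marrow. Blood left in a heart, stress of birth and handling, and scraps of neighbouring tissue all add transcripts to whole-heart RNA, in which fewer cells of a type and less RNA per cell cannot be told apart.

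Each value is a log2 expression value of 1 probe set on an Affymetrix Rat Gene 1.0 ST array, from which the median of that probe set over the 23 hearts had been subtracted. A value of 1 is therefore a doubling over the middle heart, and neither the level of a transcript nor its distance from background can be read. A difference is the mean of the 3 exposed group means minus the control mean, on the log2 scale. A probe set was past the threshold where the difference exceeded the fold limit of the study's methods, 0.32 on the log2 scale in either direction, and the unadjusted limma p was under 0.05. Of 29170 probe sets, 15310 carried 1 gene symbol, and genes are named from these. The cardiac muscle markers did not separate the hearts: the mean of 14 of them, among them Myh6 and Tnnt2, lay between -0.11 and 0.09 in control hearts and between -0.25 and 0.09 in exposed hearts.

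Several hearts stood apart from their groups in ways that touch the comparison. Control heart 1 carried transcripts of lung and thymus. The mean of 10 lung epithelium probe sets was 2.70 in it and at most 0.75 in any other heart, and the mean of 11 thymocyte and lymphocyte probe sets was 2.98 in it and at most 0.19 elsewhere. Surfactant protein C (Sftpc) reached 5.93 there, the T-cell receptor component Cd3g 5.73 and the recombinase Rag1 4.67. In this heart 147 single-symbol probe sets were more than 1 above every other heart, against 14 in control heart 5, 10 in combination heart 1 and 0 to 3 in each of the others. Control heart 5 was marked by genes known from the choroid plexus, chosen after their values were seen: transthyretin (Ttr) was 5.47 with the next heart at 1.71, the potassium channel Kcnj13 was 3.38 and the serotonin receptor Htr2c 3.20. Control heart 6 and combination heart 3 had the highest means of 21 immediate early probe sets, 1.14 and 1.10, with every other heart at or below 0.37. The count past the threshold and the count moved the same way in all 3 groups are given with and without control heart 1, as are list values that turn or move by over 1.5 times without it.

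**Figure D1:**
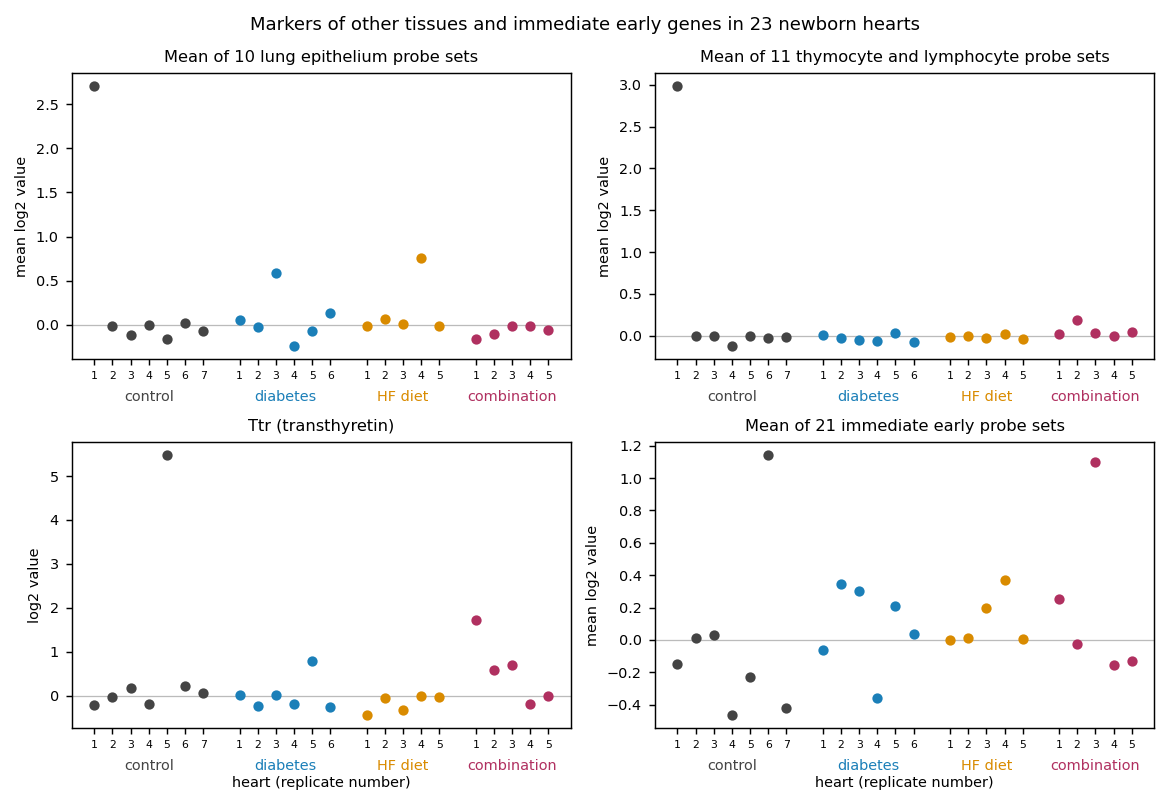
Mean log2 value (each probe set centred on its median) of 10 lung epithelium, 11 thymocyte and lymphocyte and 21 immediate early probe sets, and the log2 value of Ttr, with 1 point per heart and hearts numbered within the 4 groups. Control heart 1 stands at 2.70 and 2.98 in the lung and lymphocyte panels, control heart 5 at 5.47 for Ttr, and control heart 6 and combination heart 3 near 1.1 for the immediate early probe sets.

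No transcript separated exposed from control hearts. For 0 of the 29170 probe sets did all 16 exposed hearts lie on one side of all 7 controls. After Benjamini-Hochberg adjustment of the limma p-values over all probe sets, 0 were under 0.05 and the lowest adjusted p was 1, while 729 had an unadjusted p under 0.05. The methods' t-test gave 0 after adjustment and 766 before it. Both 729 and 766 are smaller shares of the 29170 than the 0.05 expected on average where no probe set differs. Past the unadjusted threshold were 101 probe sets, 0.346% of those tested, 58 higher and 43 lower in exposed hearts. Among those with 1 symbol, 20 were higher (0.131%) and 17 lower (0.111%). The adjusted p was therefore 1 for every gene named below. Most average differences are given with their standard error (SE) from limma, and many with whether they were past the unadjusted threshold.

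The average over exposures was seldom carried by all of them equally. Of the 101 probe sets, 99 had 3 group differences of one sign. Yet 9 were past the threshold in no single group against control, 63 in 1 group, 27 in 2 groups and 2 in all 3. The difference was widest in the combination group for 48, in the HF diet group for 33 and in the diabetes group for 20. These group differences share the 7 control hearts, so a common sign says little by itself. The moderated F test in limma among the 3 exposed groups, which leaves the controls out, left 0 probe sets under 0.05 when adjusted (lowest adjusted p = 0.170), while 2339 (8.02%) had an unadjusted p under that value. Of the 101, 10 had an F-test p under 0.05.

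The rule of the same direction in all 3 groups, with each group difference beyond the fold limit and no p required, was met by 94 probe sets, 27 higher and 67 lower. Among single-symbol probe sets it was met by 9 higher (0.0588%) and 47 lower (0.307%). The 9 higher were Hbe1, Chrdl1, Ak4, Hk2, Agtr2, Egr1, Olr1, Tceal7 and Ptgs2. Without control heart 1 the rule was met by 7 higher (0.0457%) and 12 lower (0.0784%), of which 6 and 7 were among those counted with it. Of the 47 lower genes, control heart 1 was the highest of all 23 hearts in 40, in 38 of them by more than 1 over the next control. Leaving that heart out removed 40 of the 47. Those removed included genes known from T cells, the thymus and lung, such as Cd3d, Cd3e, Cd3g, Cd8b, Lck, Rag1, Prss16, Sftpb and Sftpc. For Sftpc the exposed minus control difference was -0.80 with all hearts and 0.059 without control heart 1, and for Rag1 it was -0.41 and 0.29.

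**Figure D2:**
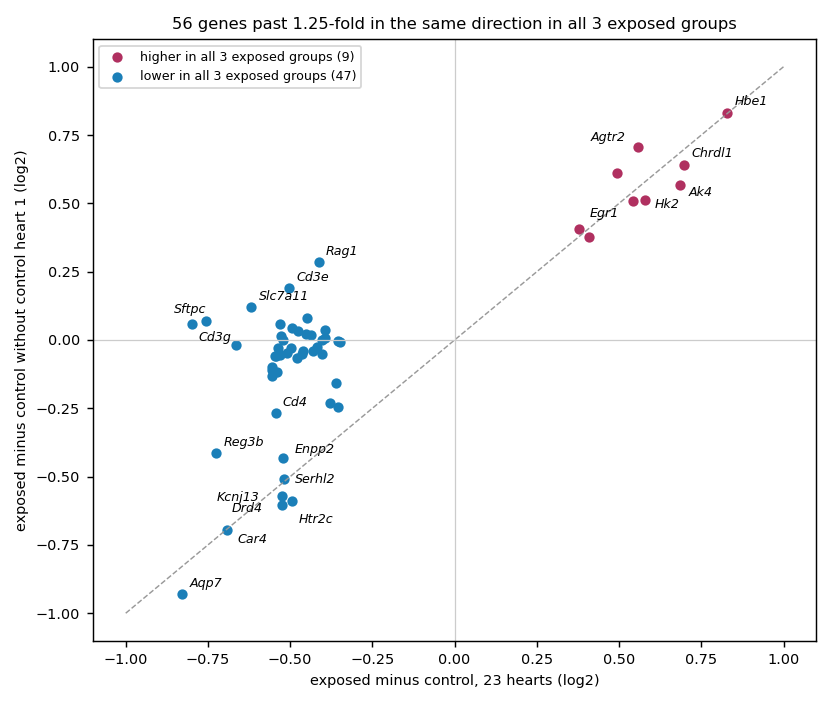
Exposed minus control difference (log2) of the 56 single-symbol probe sets past the fold limit in the same direction in all 3 exposed groups, with all 23 hearts on the horizontal axis and without control heart 1 on the vertical axis; the dashed line marks equal values. Most of the 47 lower genes move to near 0 without control heart 1, whereas the 9 higher genes stay close to the line.

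Of these 56 genes, 2 kept the rule when each of the 23 hearts was left out in turn: the embryonic globin Hbe1 among the higher and the glycerol channel Aqp7 among the lower. Leaving out control heart 5 removed 5 of the 47 lower genes, among them Kcnj13, Htr2c and Enpp2, which are also known from the choroid plexus. Leaving out other controls moved the count up: 194 probe sets met the rule without control heart 6, 147 without control heart 2 and 146 without control heart 4, instead of 94. The number past the threshold in all 3 groups ranged from 0 without HF diet heart 3 to 13 without control heart 6, and a single probe set separated the groups without control heart 4. The number past the unadjusted threshold was 151 without control heart 1 (130 higher and 21 lower, 57 shared with the 101) and also 151 without control heart 2. It reached 209 without control heart 6, was 168 without HF diet heart 1, and was lowest, 76, without HF diet heart 4. With group medians in place of means, a choice added after the values were seen, the rule was met by 19 higher and 11 lower single-symbol probe sets. Of these, 5 higher and 3 lower were among the 56: Hbe1, Chrdl1, Egr1, Olr1 and Tceal7, and Aqp7, Serhl2 and Cldn1.

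**Figure D3:**
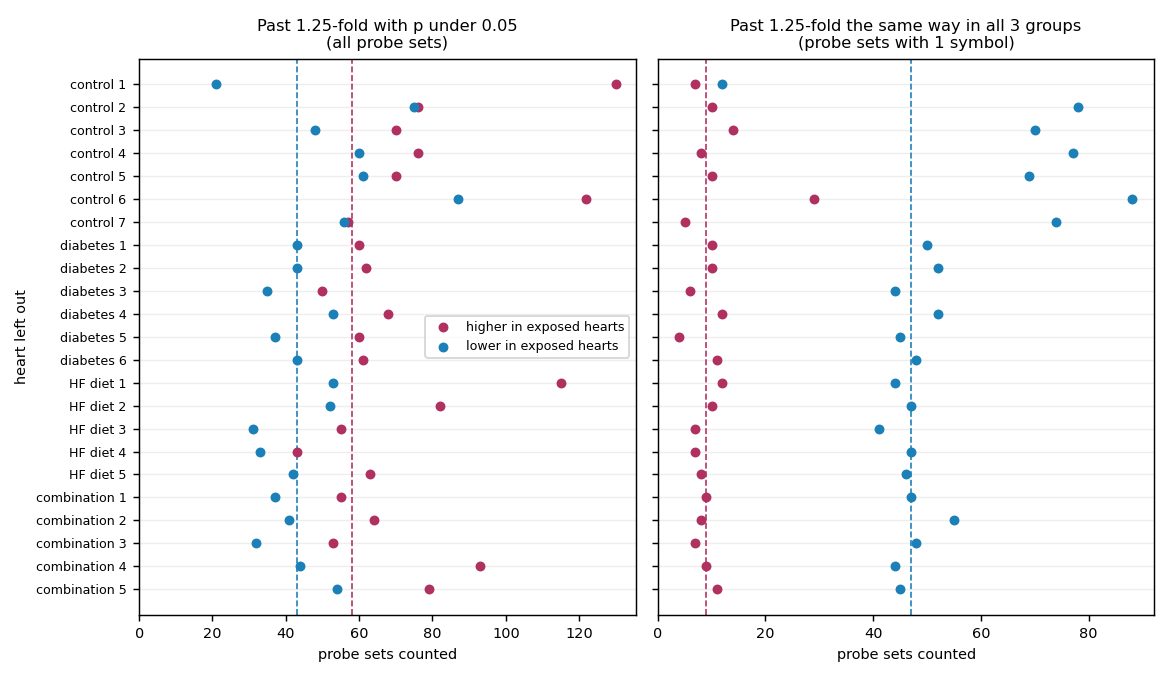
Number of probe sets higher (red) and lower (blue) in exposed hearts when the heart named on the vertical axis was left out, past the unadjusted threshold among all probe sets (left) and past the fold limit in the same direction in all 3 groups among single-symbol probe sets (right); dashed lines mark the counts with all 23 hearts. Without control heart 1 the lower counts drop to 21 and 12, and without control heart 6 the higher counts reach 122 and 29.

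Hbe1, the epsilon globin of embryonic red cells, had the widest average difference among the 9 genes higher beyond the fold limit in all 3 exposed groups. Its values ran from -1.28 to 0.11 with a median of -0.39 in control hearts and from -0.46 to 1.70 with a median of 0.32 in diabetes hearts. In HF diet hearts 1 to 5 they were -0.018, -0.14, 0.20, 1.06 and 1.19, and in combination hearts 1 to 5 they were 0.51, 2.09, -0.11, 0 and -0.56. The groups overlapped: 8 of 16 exposed hearts lay above the highest control and 14 above the control median, while diabetes heart 2 and combination heart 5 lay below it. Control means were -0.41 ± 0.47 (SD, n = 7), against 0.42 ± 0.82 (n = 6), 0.46 ± 0.62 (n = 5) and 0.39 ± 1.03 (n = 5) in the diabetes, HF diet and combination groups. The 3 group differences were 0.83, 0.86 and 0.79, and their average was 0.83, a 1.78-fold difference (SE 0.31, adjusted p = 1). The F test among the exposed groups gave an adjusted p of 0.996 (limma). Leaving out single hearts moved the average between 0.68 and 0.91, and it stayed past the threshold each time.

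The promoters of Hbe1 and of the adult beta globin Hbb are shown because these genes stand for the embryonic and the adult red cell. The sequences are RefSeq's on GRCr8, from 250 bases before to 50 bases after the start, read along the gene on the minus strand, at chr1:167696231-167696530 for Hbe1 and chr1:167663672-167663971 for Hbb. Capitals mark the letters GATAA, bound by GATA factors, CCAAT, and ATAAAA, a form of the TATA box, on either strand.
Hbe1: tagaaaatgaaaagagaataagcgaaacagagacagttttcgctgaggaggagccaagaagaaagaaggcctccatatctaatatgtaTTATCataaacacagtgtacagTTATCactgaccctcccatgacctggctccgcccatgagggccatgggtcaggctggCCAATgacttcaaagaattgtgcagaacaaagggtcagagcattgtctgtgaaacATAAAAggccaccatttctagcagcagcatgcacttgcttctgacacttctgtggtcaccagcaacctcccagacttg
Hbb: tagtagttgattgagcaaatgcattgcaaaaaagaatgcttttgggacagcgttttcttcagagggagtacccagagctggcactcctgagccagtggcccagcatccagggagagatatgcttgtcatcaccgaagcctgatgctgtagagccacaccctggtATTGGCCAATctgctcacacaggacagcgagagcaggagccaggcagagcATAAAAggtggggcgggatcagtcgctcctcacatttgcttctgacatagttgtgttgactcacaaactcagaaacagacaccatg
The Hbe1 window holds 2 GATAA, both as TTATC on the strand shown, starting 162 and 140 bases before the start, and 1 each of CCAAT and ATAAAA. The Hbb window holds 0 GATAA, a pair of adjoining CCAAT motifs on opposite strands, and 1 ATAAAA. Of 33469 promoters of this length, 26.5% held GATAA, 5.46% 2 or more, 37.5% held CCAAT and 20.5% ATAAAA. The matches describe the letters and not factor binding.

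The other red cell genes were higher on average but less evenly so. Ahsp, the chaperone of free alpha globin, ran from -1.65 to 0.50 with a median of -0.58 in control hearts and from 0 to 1.19 with a median of 0.28 in diabetes hearts. It was -0.17, -0.94, -0.56, -0.20 and 0.002 in HF diet hearts and 1.16, 2.51, 1.16, -0.10 and -0.49 in combination hearts. Combination hearts 1 to 3 were above every control, whereas all 5 HF diet hearts were below control hearts 3 and 6. Its difference was 0.85 (SE 0.33), with group differences of 1.001, 0.16 and 1.38, and it was among the 10 with an unadjusted F-test p under 0.05. Without control heart 2 or control heart 4 it was not past the threshold, nor was it by the methods' t-test with all hearts. Another embryonic beta-like globin, Hbg1, differed by 0.51 (SE 0.26). Alas2, which starts heme synthesis in red cells, differed by 0.45 (SE 0.25). Adult Hbb differed by 0.20 (SE 0.13). None of these 3 was past the threshold. The beta-like globins are related in sequence, and whether probes of one read another was not tested.

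Of 16 probe sets on a list of erythroid and heme synthesis genes, which does not hold Hbe1, all 16 had a positive difference and 1, Ahsp, was past the threshold. Their median difference was 0.19, against 0.0042 over all single-symbol probe sets, 8027 of which (of 15310) were positive. The median was 0.22 in the diabetes group, -0.012 with HF diet and 0.30 in the combination group. The list mean ran from -0.48 to 0.22 in control hearts and from -0.29 to 1.02 in exposed hearts, with combination heart 2 the highest. Without control heart 1 the median was 0.16, and 14 members were positive. With the list mean as a covariate the Hbe1 difference was 0.51 and no longer past the threshold. The share of blood in each heart is not given, and its part in the result was not tested.

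Chrdl1, a secreted antagonist of bone morphogenetic proteins, had the next widest average difference among those 9 genes. It ran from -0.50 to 0.42 with a median of -0.21 in control hearts and from -0.41 to 1.71 with a median of 0.18 in diabetes hearts. In HF diet hearts it was -0.43, -0.041, 0.63, 0.85 and 0.70, and in combination hearts 1.37, 1.65, 1.48, 0 and 0.019. Control heart 6 was the highest control, and 8 exposed hearts lay above it. The difference was 0.70 (SE 0.26), with group differences of 0.51, 0.51 and 1.07. It was past the threshold in each leave-one-out, but not with the combination group left out of the average, where it was 0.51. Without diabetes heart 5 the diabetes difference was under the fold limit. Bmp4 and Bmp2, ligands it can bind, differed by -0.13 (SE 0.18) and 0.088 (SE 0.14) and were looked up after Chrdl1 had been seen.

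The same hearts recurred at the high and low ends of several genes. The glycolytic enzyme Hk2 was 1.38 in control heart 6, 1.64 and 1.66 in diabetes hearts 3 and 5, 1.49 and 1.07 in HF diet hearts 3 and 4, and 1.07, 2.25 and 1.78 in combination hearts 1 to 3. In the remaining 15 hearts it was at most 0.12. Its difference was 0.58 (SE 0.35), not past the threshold. The mitochondrial adenylate kinase Ak4 was high in the same 8 hearts, from 0.64 to 2.52, and at most 0.15 in the others. Its difference was 0.68 (SE 0.32), past the threshold, with group differences of 0.43, 0.37 and 1.26. Of 7 control hearts 1 belonged to these 8, of 6 diabetes hearts 2, of 5 HF diet hearts 2 and of 5 combination hearts 3. The 2 HF diet hearts share a code stem, as do combination hearts 1 and 2, so these may not be independent litters.

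Aqp7, the channel through which heart muscle and fat cells pass glycerol and water, was low in those hearts, which gave its 8 lowest values. It ran from -2.84 to 1.09 with a median of 0.64 in control hearts and from -2.52 to 0.59 with a median of -0.53 in diabetes hearts. It was 0.25, 0.62, -2.69, -2.44 and -0.71 in HF diet hearts and -1.57, -2.09, -1.36, 0.74 and 0.83 in combination hearts. The lowest of all 23 values, -2.84, was in control heart 6, so the groups overlapped over their whole range. The difference was -0.83 (SE 0.57), with group differences of -0.71, -1.04 and -0.74. It met the same-direction rule in every leave-one-out and by medians, yet was not past the threshold.

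Car4, a carbonic anhydrase held on the outer membrane of capillary and muscle cells, had a similar order of hearts. It ran from -0.38 to 0.72 with a median of 0.20 in control hearts and from -1.62 to 0.45 with a median of -0.25 in diabetes hearts. It was 0.18, 0.52, -1.57, -0.91 and 0.15 in HF diet hearts and -1.06, -2.09, -0.76, -0.052 and 0.097 in combination hearts. Diabetes heart 3, HF diet heart 3 and combination heart 2 were the lowest, and 8 exposed hearts lay below the lowest control. The difference was -0.69 (SE 0.30), with -0.54, -0.55 and -0.996 by group. It was not past the threshold without control heart 4, 5 or 7.

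**Figure D4:**
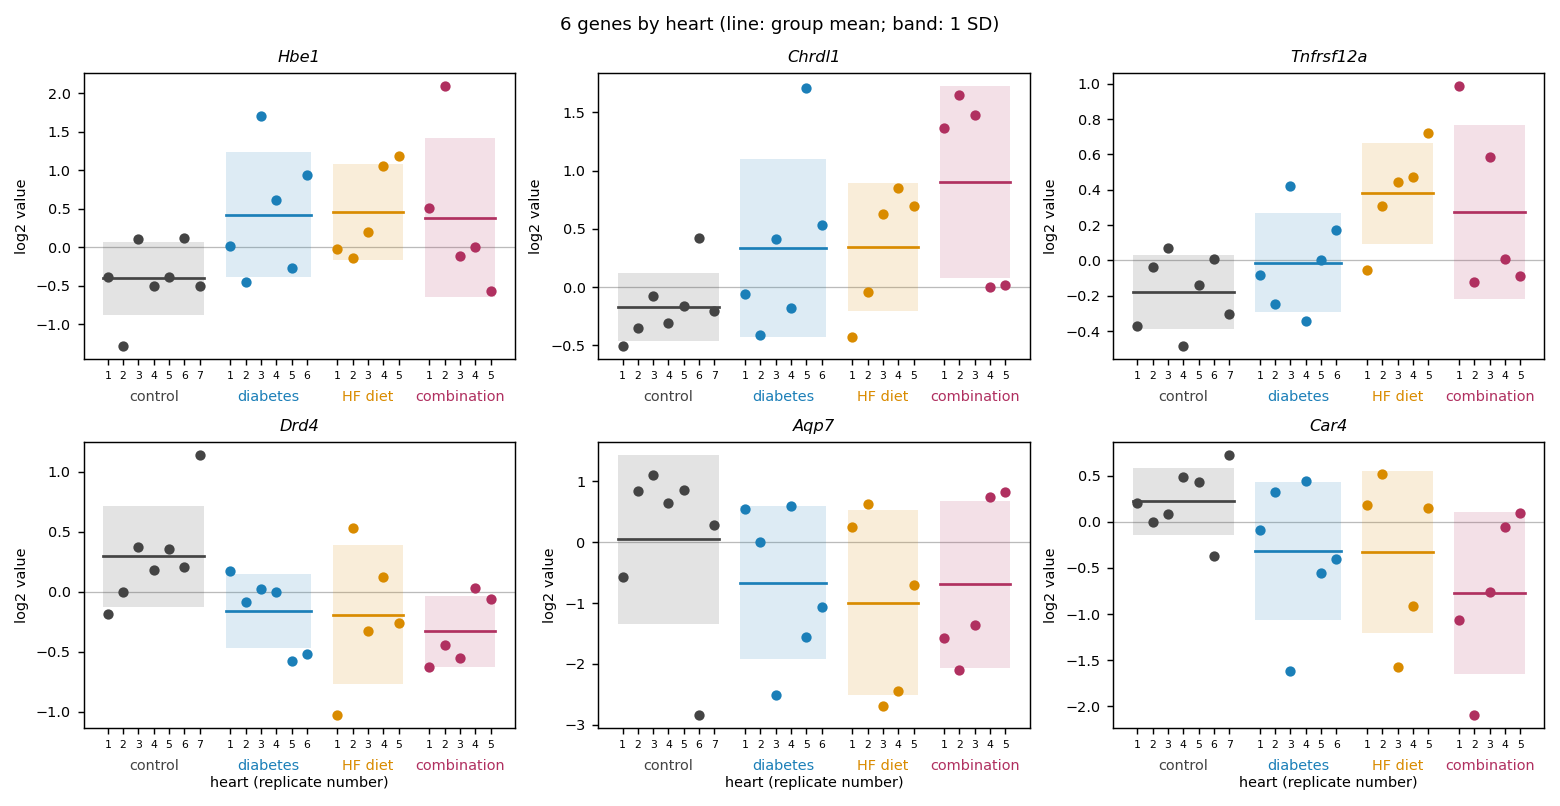
Log2 value (centred on the median of 23 hearts) of Hbe1, Chrdl1, Tnfrsf12a, Drd4, Aqp7 and Car4 in each heart, with a line at each group mean and a band of 1 SD on either side. In all 6 panels exposed and control hearts overlap, and in the Aqp7 panel the lowest point, -2.84, is a control heart.

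Among receptors, Drd4, the dopamine D4 receptor, was on average lower in exposed hearts in every setting tried. It ran from -0.19 to 1.14 with a median of 0.20 in control hearts and from -0.57 to 0.17 with a median of -0.042 in diabetes hearts. It was -1.03, 0.54, -0.33, 0.12 and -0.26 in HF diet hearts and -0.63, -0.44, -0.55, 0.029 and -0.064 in combination hearts. Of 16 exposed hearts, 15 lay below the control median and 8 below the lowest control, with HF diet heart 2 the exception. The difference was -0.52 (SE 0.17, adjusted p = 1), with -0.46, -0.49 and -0.63 by group. Control heart 7 was the highest at 1.14, and without it the average was -0.38. The same-direction rule was not met without control heart 7, without HF diet heart 1 or by group medians. Drd4 and Cd4 were the 2 genes past the threshold in all 3 groups, both lower (0.0131% of single-symbol probe sets), and the methods' t-test called 0 in all 3.

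Cd4, the co-receptor of helper T cells, was 2.16 in control heart 1, and the next control was at 0.52. Its difference was -0.54 (SE 0.19) with all hearts and -0.27 without control heart 1, where it was not past the threshold. Adra1b, the alpha-1B adrenergic receptor, through which heart muscle responds to noradrenaline, was lower, with group differences of -0.25, -0.41 and -0.75. Its average was -0.47 (SE 0.19). It was not past the threshold without control heart 7, with the combination left out of the average, with limma array weights or with the erythroid covariate. Its lowest values were in the same hearts as those of Aqp7, control heart 6 among them at -0.63. Agtr2, the fetal angiotensin receptor, was higher by 0.56 (SE 0.27), not past the threshold. Without control heart 1 it was higher by 0.71, past the threshold. Agtr1a, looked up as its counterpart, differed by 0.029 (SE 0.12). Tnfrsf12a, the receptor of the cytokine TWEAK, was higher by 0.39 (SE 0.14).

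Tnfrsf12a ran from -0.48 to 0.070 with a median of -0.14 in control hearts and from -0.34 to 0.42 with a median of -0.041 in diabetes hearts. It was -0.055, 0.31, 0.45, 0.47 and 0.72 in HF diet hearts and 0.99, -0.12, 0.58, 0.008 and -0.087 in combination hearts. Of 5 HF diet hearts 4 lay above every control, while 3 of 5 combination hearts lay among the controls. HF diet hearts 3 to 5 share a code stem, as do combination hearts 4 and 5. By group it differed by 0.17, 0.56 and 0.45, and it was past the threshold in each leave-one-out but not with HF diet left out of the average. Hbegf, a heparin-binding ligand of the epidermal growth factor receptor, followed with 0.23, 0.55 and 0.72 by group and 0.50 on average (SE 0.20). For both genes the diabetes difference was the smallest and under the fold limit. Gadd45g, a stress-induced growth arrest gene, had its widest difference in the combination group, 0.71, against 0.21 and 0.15 in the diabetes and HF diet groups. Its average was 0.36 (SE 0.15), past the threshold by limma but not by the methods' t-test. In 4 leave-one-outs, that of control heart 1 among them, it was not past the threshold.

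Fbln5, which helps to assemble elastic fibres, was higher by 0.44 (SE 0.16), with 0.54 and 0.57 in the diabetes and HF diet groups and 0.19 in the combination group. Frzb, a secreted Wnt antagonist, had 0.56, 0.39 and 0.22 by group and was also lowest in the combination group. Hapln1, which links hyaluronan to proteoglycans in the developing valves, had 0.21, 0.34 and 0.62. Fbln5 was past the threshold in each leave-one-out, Frzb was not without control heart 4 or 5, and Hapln1 was not without control heart 1. By the methods' t-test neither Fbln5 nor Frzb was past it. Of 20 probe sets on the fibroblast and matrix list, Fbln5 was the only one past the threshold and 10 had a positive difference, with a median of -0.001 (-0.0060 without control heart 1).

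Among transporters and scaffolds, Slco2b1, an uptake carrier of organic anions such as steroid sulfates, was lower in all 16 exposed hearts than the control median. It ran from -0.24 to 0.54 with a median of 0.28 in control hearts and from -0.85 to 0.24 with a median of 0.076 in diabetes hearts. In HF diet hearts it was 0.11, 0.19, -0.57, -0.50 and -0.17, and in combination hearts -0.59, -0.68, -0.31, 0 and -0.14. Of the exposed hearts, 7 lay below the lowest control. The difference was -0.43 (SE 0.15). Magi3, a scaffold protein of cell junctions, was lower, with differences of -0.41, -0.28 and -0.37 in the diabetes, HF diet and combination groups. Its average difference was -0.36 (SE 0.11), the smallest p among the lower genes past the threshold, and 10 exposed hearts lay below the lowest control. Both were past the threshold in each leave-one-out and in every other setting except limma array weights. Slc18a1, a vesicular monoamine transporter, was higher by 0.48 (SE 0.19), most in the combination group (0.87), and Tceal7 by 0.41 (SE 0.15). Slc18a1 was not past the threshold without control heart 1 or with the combination left out of the average. Tceal7 was not past it without control heart 7.

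Of the genes on the lists of fuel use and low oxygen, 3 were past the threshold. Ak4, given above and also past it, is on none of those lists. Bdh1, the mitochondrial enzyme that oxidizes and makes the ketone body 3-hydroxybutyrate, was higher by 0.65 (SE 0.29). The group differences were 0.58, 0.17 and 1.20, and 9 of 23 leave-one-outs took it below the threshold. Slc16a3, the lactate exporter MCT4, was higher by 0.50 (SE 0.24), and 15 leave-one-outs took it below the threshold. Nor was it past the threshold by the methods' t-test. Mgarp, a mitochondrial protein known to be induced by low oxygen, was higher by 0.47 (SE 0.19), with 0.87 in the combination group and 0.35 and 0.20 in the others. Above every control were 12 exposed hearts, but the highest control stood at -0.004 and the exposed median at only 0.0695. Diabetes heart 5, at 1.38, was far above the diabetes median of -0.008.

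On the pathway lists, 18 ketone body and branched-chain amino acid probe sets included 1 past the threshold (Bdh1) and 15 with a positive difference, with a median of 0.13. Bdh1 was not past it without control heart 1. Of 49 glycolysis and glucose uptake probe sets, which stand for only 28 genes, 1 (Slc16a3) was past it and 45 were positive, with a median of 0.058. With that heart left out, 0 were past it and 43 were positive, with a median of 0.036. Of 37 probe sets for fatty acid oxidation and PPAR targets, 0 were past it, and 6 were positive, with a median of -0.075 and group medians of -0.071, -0.12 and -0.037. In the absence of control heart 1, 2 were positive. Ucp3, a mitochondrial carrier on that list, had -0.21 (SE 0.099), under the fold limit. Of 21 hypoxia response probe sets, 1 (Mgarp) was past the threshold and 17 were positive, with a median of 0.085. Control heart 6 had the highest hypoxia mean among controls, 0.36, and exposed hearts ranged from -0.22 to 0.64.

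With all hearts, lists of the mitochondrion had their highest medians in the combination group. The 73 mitochondrial ribosome probe sets had a median difference of 0.071 and 70 were positive, but the medians of the diabetes, HF diet and combination groups were -0.007, -0.041 and 0.25, and 0 were past the threshold. Complex I (38 probe sets) and complexes II to V (53) had medians of 0.036 and 0.023, with 31 and 42 positive and again 0 past it. Leaving out control heart 1 gave a mitochondrial ribosome median of 0.037 with 55 positive, one for complex I of 0.010 with 21 positive and one for complexes II to V of 0.00098 with 28 positive. The 17 regulators of mitochondrial biogenesis had a median of 0.010 with 9 positive, and the 33 probe sets of insulin, PI3K and AKT signaling one of -0.016 with 12 positive. These medians without control heart 1 were 0.0030 with 11 positive and 0.0090 with 18 positive, so the sign of the insulin, PI3K and AKT median turned on that heart. The 19 chromatin regulators with long transcripts were all negative with a median of -0.089, and group medians of -0.015, 0.059 and -0.33. The chromatin median was -0.043 without control heart 1, and 4 were positive. The group medians of the mitochondrial ribosome and chromatin lists lay farther apart than their averages show, and no test over a list was made.

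Cell cycle probe sets (38) had a median difference of 0.098 with 34 positive, and hypertrophy and myocyte stress probe sets (15) one of 0.096 with 12 positive. Neither list had a member past the threshold. Nppb, the natriuretic peptide of stretched heart muscle, differed by 0.29 (SE 0.12), under the fold limit, and Nppa by 0.003 (SE 0.050). The immediate early list had 0 of 21 past the threshold and 19 positive. Egr1, one of its members, met the same-direction rule with a difference of 0.54 (SE 0.32). All 16 exposed hearts lay above its control median of -0.48, while the highest control, heart 6, stood at 2.05. Calcium cycling and ion channel genes (26) had a median of -0.044, 6 of them positive, and 0 past the threshold. With all hearts, the other pathway and technical lists had 0 or 1 member past the threshold in either direction, except the olfactory receptors.

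The medians of the thymocyte and lymphocyte list and of the lung list turned sign without control heart 1. The thymocyte and lymphocyte list (11 probe sets) had 1 member past the threshold (Cd4), 0 positive and a median of -0.45, which was 0.044 with 6 positive when that heart was left out. The lung list (10) had a median of -0.25, which became 0.034. Stap1, an adaptor of lymphocyte receptors, differed by -0.40 with all hearts and -0.21 without control heart 1. The interferon-induced Ifi44l had -0.38 and -0.23, and Mal2, a protein of epithelial membrane traffic, -0.35 and -0.17. Tmem229b had -0.38 and -0.23, and Serping1, the inhibitor of the first complement component, -0.34 and -0.28. Of these genes none was past the threshold without that heart. Reg3b, a secreted antibacterial lectin, was lower, differing by -0.73 (SE 0.26) and by -0.41 without control heart 1, still past the threshold. With all hearts it had -0.41, -0.99 and -0.77 by group. Control heart 1 stood at 2.46 and the next control at 0.99. Without control heart 1 Reg3b did not meet the same-direction rule. By the methods' t-test with all hearts it was not past the threshold.

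Of the other cell type lists, macrophages and monocytes (18 probe sets, median -0.030), endothelial cells (14, 0.011), smooth muscle cells and pericytes (12, -0.042), epicardium and mesothelium (11, -0.071), Schwann cells and neurons (12, 0.010) and adipocytes (10, -0.049) had 0 members past the threshold. Without control heart 1 the median turned sign for macrophages and monocytes (0.042, with 11 positive instead of 7), for epicardium and mesothelium (0.013, with 6 positive instead of 3) and for Schwann cells and neurons (-0.0020), and was -0.027 for smooth muscle cells and pericytes. The 14 cardiac muscle markers had a median of -0.021 and also 0.

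The smallest p-value of all single-symbol probe sets past the threshold belonged to an odorant receptor, Or4c127. It was higher by 0.34 (SE 0.084, adjusted p = 1), with 0.31, 0.22 and 0.49 by group, and 9 exposed hearts lay above every control. A close relative, Or4c122, was higher by 0.33 (SE 0.12) and was lost in 6 leave-one-outs. They were the 2 past the threshold among 1269 odorant and pheromone receptor probe sets, a share of 0.158%, near the 0.131% higher over all single-symbol probe sets. The receptors' median difference was 0.023 with 777 positive. This family holds many near-identical copies whose probes can read one another, and whether these transcripts were above background cannot be read from centred values.

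**Figure D5:**
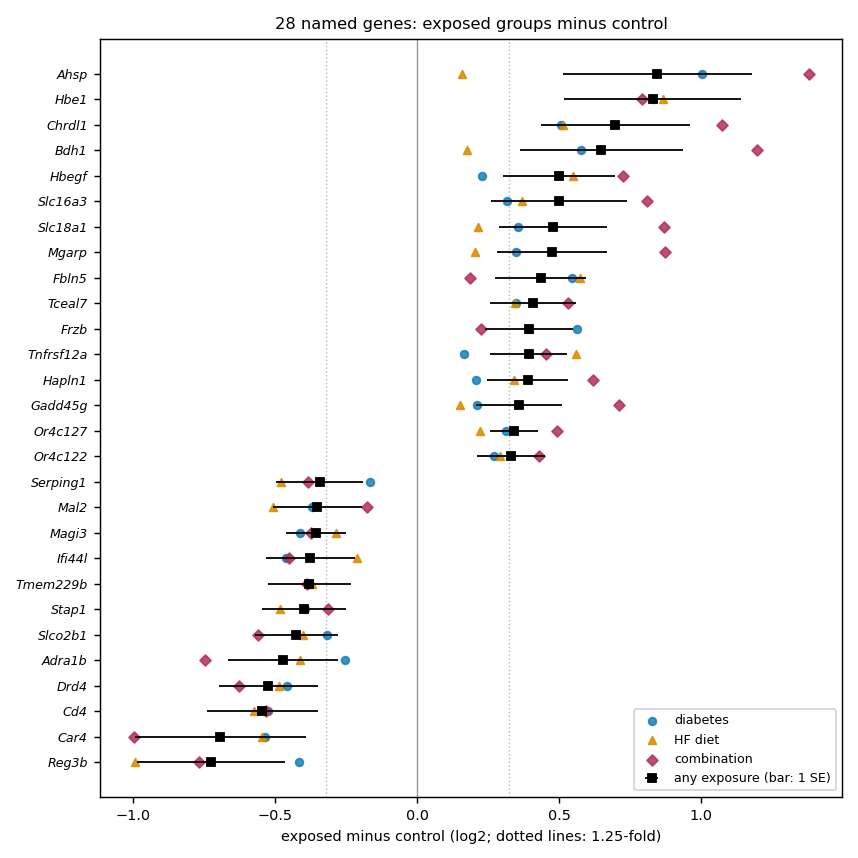
Exposed minus control difference (log2) of 28 of the 29 named genes, with black squares for the average over the 3 exposed groups (bar, 1 SE), coloured symbols for each group against the same 7 control hearts, and dotted lines at the fold limit of 0.32. The symbols lie close together for Hbe1, Drd4, Cd4 and Magi3, and far apart for Ahsp, Bdh1, Slc18a1 and Mgarp, whose combination differences are the widest.

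Of the 29 named genes, 10 stayed past the unadjusted threshold whichever heart was left out, among them Hbe1, Chrdl1, Mgarp, Fbln5 and Tnfrsf12a, which were higher, and Drd4, Slco2b1, Magi3 and Reg3b, which were lower. Only Drd4 also stayed past it under each of the 16 other settings, and the sign of the average changed for none of the 29 under any of them. The 29 were chosen from these same values for differences past the threshold, so neither a kept sign nor staying past the threshold says much by itself. Hbe1 was lost under 1 of those 16, the erythroid covariate, and Chrdl1 under 3.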

How the data were processed

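RNA of 23 whole newborn hearts was hybridised to Affymetrix Rat Gene 1.0 ST arrays, 1 array per heart. GeneSpring GX was the normalization software of the authors, its algorithm not given in the sources used here, and the deposited log2 values are centred on each probe set's median over the 23 arrays. Array medians lay between -0.015 and 0.019, array SDs between 0.16 and 0.39. Of 29170 probe sets, 15310 had 1 symbol in the platform annotation, 323 several and 13537 none; 15279 matched RefSeq by Entrez identifier. The number of arrays limits the precision, as does the spread between hearts (median SE of the difference, 0.079).

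Groups came from the labelled exposure. Per the methods, streptozotocin dams that did not become hyperglycemic were excluded, and sexes were studied together. All hearts entered 1 fit with a mean per group (limma 3.58.1, R 4.3.3; lmFit and eBayes; 19 residual and 3.56 prior degrees of freedom) with the contrast of the averaged exposed means minus control, counted beyond a log2 difference of 0.32 and an unadjusted p under 0.05 after the methods, and adjusted by Benjamini-Hochberg over all probe sets. The methods' t-test (unequal variances) was an alternative. Nothing states whether hearts came from separate dams: sample codes had 19 stems, of which 3 were shared by several hearts. All shared stems were in the HF diet group (3 stems for 5 hearts) and the combination group (3 stems for 5 hearts). Each control and each diabetes heart had a stem of its own. Counts of single hearts and SDs in the HF diet and combination groups may therefore rest on fewer independent litters than hearts. The p-values therefore reflect only how these hearts spread, which may be technical.

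Named genes, from single-symbol probe sets past the threshold, were the 12 higher and 12 lower with the smallest p, those past it in all 3 groups, up to 2 per direction and list, and the 4 with the smallest F-test p. Members, 34 gene lists (11 of cell type markers) and tests were chosen with earlier results of these data known; genes named outside this rule were chosen after their values were seen. Of the 29 named genes, 1 is not reported here. The limma step was tested on simulated data. Figures were drawn with matplotlib 3.10.9.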

Additional observations from a re-analysis of the deposited data

Results flagged for a closer look

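In 160 groups of 5 to 7 hearts (29 named genes and 11 marker list means, each in 4 groups), 16 hearts lay farther from their nearest neighbour than Dixon's 95% limit allows, where chance flags about 1 in 20 groups. Control heart 1 accounted for 5 of them: the mean of the lung epithelium list at 2.70, the mean of the thymocyte and lymphocyte list at 2.98, Cd4 at 2.16, Stap1 at 1.45 and Ifi44l at 1.09. Other control hearts were flagged for Drd4 (heart 7, 1.14) and Or4c122 (heart 3, -0.565).

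HF diet heart 3 was low for Cd4 at -0.474, Tmem229b at -0.646, Serping1 at -1.33 and the epicardium and mesothelium list at -0.248. HF diet heart 4 was high for the lung list at 0.753. In the diabetes group, heart 6 was low for Hapln1 at -0.787 and heart 5 high for Mgarp at 1.38. In the combination group, heart 1 was low for the smooth muscle and pericyte list at -0.407 and heart 2 high for the lymphocyte list at 0.193.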

How the results depend on the processing

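For the 29 named genes the sign of the average changed under none of the alternatives. They were chosen from these same values, so a kept sign says little by itself. Without control heart 1 the signs of Sftpc, Rag1 and several list medians turned, as given with those results. The count past the unadjusted threshold, 101 (58 higher and 43 lower), became 61 with the methods' t-test, 154 with HF diet and 203 with diabetes left out of the average, 205 with the erythroid mean as a covariate and 41 when only single-symbol probe sets were fitted, and ranged from 76 to 209 when single hearts were left out. The higher to lower split was 59 to 28 with arrays scaled to one spread and 55 to 21 with array weights. The same-direction count, 94 (27 and 67), became 46 (25 and 21) after quantile normalization, 60 (31 and 29) with arrays scaled to one spread, 44 (32 and 12) with array weights, 144 with the erythroid covariate and 56 in single-symbol probe sets, and ranged from 57 to 194 over the leave-one-outs. The 2 past the threshold in all 3 groups became 0 with the t-test, 1 with hearts of a code stem averaged, 1 with the stem as a random block, 1 with a Y-linked covariate (which rests on Sry alone) and 9 with the erythroid covariate, and ranged from 0 to 13. The count of probe sets separating the groups, 0, became 1 with stems averaged and ranged from 0 to 1. The cause of these shifts was not tested. Adjusted p-values under 0.05 stayed at 0 throughout for the exposed average.

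Replicate numbers do not pair these hearts: hearts of the same number correlated at -0.0052 on average over 31 pairs, and 7 of 23 correlated best with their own number. With the replicate block, the count past the threshold was 146 (71 shared), the same-direction count 169 and the count in all 3 groups 10. For the 29 named genes, 159 of 1131 alternative values fell short of the threshold and 0 changed sign. Signal over background cannot be read from centred values, so no gene can be set aside as undetected.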

Other observations

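Combination heart 1 had 10 single-symbol probe sets more than 1 above every other heart, among them the heat-shock genes Hsph1 at 2.60 (next heart 0.59), Dnajb1 at 2.10 (0.54) and Dnaja1 at 1.46. Combination heart 2 had 3, all of red cell genes: Ahsp at 2.51, and repeated probe sets of Rhag, each at 1.83. These were chosen after their values were seen. By group medians, but not by means, the same-direction rule was also met by Sgk1 (0.79, 0.51 and 0.52 in the diabetes, HF diet and combination groups), Pi15 (0.86, 0.46 and 0.47) and Ech1, an enzyme of fatty acid oxidation (-0.37, -0.77 and -0.55).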
